A study of Mus musculus with 6 samples.

Results

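The linker histone H1 genes are 7 rows of the deposited table of 54532 genes, taken by gene symbol: H1f0, H1fx, Hist1h1a, Hist1h1b, Hist1h1c, Hist1h1d and Hist1h1e. All 7 were found. RNA from mouse samples labelled lung was sequenced in 6 libraries, 3 labelled aged (mice of 18 months) and 3 labelled young (mice of 3 months). The labels give neither strain, sex nor genotype. Separate mice behind the replicates are not stated either, so errors and p-values here measure the spread between libraries, which may be technical. The H1 genes were picked with the difference between these groups already known, so their differences are given as descriptions without a test. They are given in FPKM, fragments per kilobase of gene model scaled to library size.

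Linker histones bind the nucleosome where DNA enters and leaves it, and they help to fold chromatin into compact fibres. Mammalian cells hold several subtypes that differ mostly in their tails. The subtypes of the histone cluster are made in S phase for newly replicated DNA, and their mRNAs normally end in a stem-loop, bound by the stem-loop binding protein Slbp, with no poly(A) tail. H1f0 and H1fx lie outside the cluster, and their mRNAs are polyadenylated. H1f0 is known for accumulating in cells that have stopped dividing or have differentiated. Some cluster genes are also known to give polyadenylated mRNAs that run past the stem-loop. The sources used here do not state whether poly(A) RNA was selected, and such a selection would lower the reading of every mRNA that ends at the stem-loop.

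The upstream sequences of H1f0, of Hist1h1c and of Hist1h1b are shown because the first was far lower in the libraries labelled aged, the second lower and the third higher. Each runs 250 bases 5′ to 3′ up to the RefSeq start (build GRCm38.p6, which is mm10), at chr15:79027962-79028211 on the plus strand for H1f0, chr13:23738557-23738806 on the plus strand for Hist1h1c and chr13:21780626-21780875 on the minus strand for Hist1h1b. Capitals mark the letters of 4 motifs on either strand: AAACACA (the H1 box known from H1 promoters), CCAAT (the CCAAT box), TATAAA (the TATA box) and GGGCGG (the GC box). H1f0 is all in lower case because its window holds none of them. Its gene model starts further on, at 79028450, and the bases between the window and the model were not searched.
H1f0: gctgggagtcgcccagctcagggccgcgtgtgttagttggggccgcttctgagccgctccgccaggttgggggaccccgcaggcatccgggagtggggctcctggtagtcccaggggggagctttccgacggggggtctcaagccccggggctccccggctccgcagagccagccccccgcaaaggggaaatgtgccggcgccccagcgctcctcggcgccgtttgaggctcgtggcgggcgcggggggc
Hist1h1c: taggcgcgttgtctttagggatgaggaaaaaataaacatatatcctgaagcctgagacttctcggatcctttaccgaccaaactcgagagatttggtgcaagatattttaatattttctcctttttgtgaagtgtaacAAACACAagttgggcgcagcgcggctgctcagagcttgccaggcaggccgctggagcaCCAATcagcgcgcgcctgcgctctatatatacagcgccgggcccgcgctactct
Hist1h1b: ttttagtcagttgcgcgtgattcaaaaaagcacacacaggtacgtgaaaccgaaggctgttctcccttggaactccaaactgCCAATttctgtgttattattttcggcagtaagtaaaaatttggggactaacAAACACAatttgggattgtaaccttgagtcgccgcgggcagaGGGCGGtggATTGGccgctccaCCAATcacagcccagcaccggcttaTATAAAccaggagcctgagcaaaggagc

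The H1 box letters stood upstream of 4 of the 7 genes, always on the strand of the gene. Their 30-base surroundings are shown because the box is the element known from H1 promoters, with capitals on the box. They lie on chromosome 13 at chr13:21780724-21780753 (minus strand), chr13:23738684-23738713 (plus), chr13:23554899-23554928 (plus) and chr13:23622655-23622684 (minus).
Hist1h1b: tggggactaacAAACACAatttgggattgt
Hist1h1c: tgaagtgtaacAAACACAagttgggcgcag
Hist1h1d: tgaggggcaacAAACACAgccacaaggcaa
Hist1h1e: tgaggtgtaacAAACACAactccgcatctg
In these 4 genes the box began 112 to 122 bases before the RefSeq start. Hist1h1b, which was higher in the libraries labelled aged, holds the same letters as the 3 that were lower. All 5 Hist1h1 genes had CCAAT on their own strand 51 to 56 bases before the start, and 4 of them had TATAAA 26 to 33 bases before it. Hist1h1c has no TATAAA in the window. H1fx had 1 GC box on the other strand. Over 32851 RefSeq windows of the same length, 6.25% held the H1 box on either strand, 33.8% CCAAT, 12.4% TATAAA and 32.7% GGGCGG, and 0.128% held the first 3 together on the strand of the gene. RefSeq starts and gene model starts differ for some genes: the window of Hist1h1d lies inside its model and that of H1fx overlaps its model. A match is a run of letters and not a shown binding site.

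**Figure D1:**
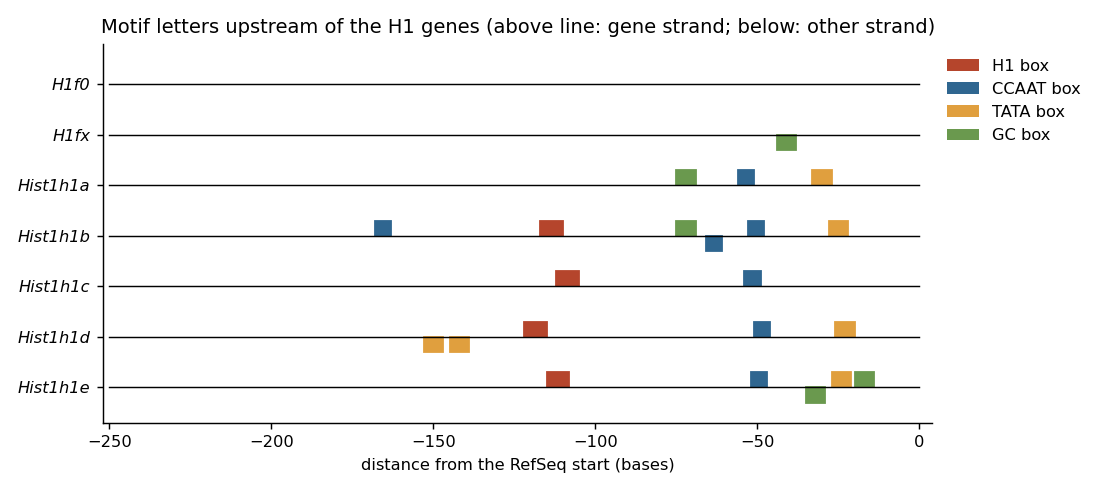
Positions of 4 motifs in the 250 bases before the RefSeq start of each H1 gene (horizontal axis, bases from the start), with boxes above the line on the strand of the gene and below it on the other strand. The H1 box sits at 112 to 122 bases before the start in Hist1h1b, Hist1h1c, Hist1h1d and Hist1h1e, and the line of H1f0 is empty.

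The 3′ ends of the gene models differ as well. The letters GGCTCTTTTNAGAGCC, the stem-loop of replication-dependent histone mRNAs, were found on the strand of the gene in 3 of the 7 models in GENCODE M21. In that annotation 36 of 55450 genes held them (0.0649%), including 29 of 64 clustered core histone genes. Those of the 3 H1 models are shown with 7 bases on either side and the stem-loop in capitals. They lie at chr13:23739505-23739534 (plus strand), chr13:23555780-23555809 (plus) and chr13:23621775-23621804 (minus).
Hist1h1c: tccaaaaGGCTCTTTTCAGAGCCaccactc
Hist1h1d: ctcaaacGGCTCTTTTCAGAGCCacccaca
Hist1h1e: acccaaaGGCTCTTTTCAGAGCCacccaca
The stem-loop began 24, 31 and 40 bases after the stop codon of Hist1h1c, Hist1h1d and Hist1h1e, and their models ran on for 840, 4884 and 1153 bases beyond it. The model of Hist1h1b ends at the stop codon and that of Hist1h1a 48 bases after it, and neither holds these letters. Bases beyond the models were not searched, so a stem-loop after the stop codon of Hist1h1b could not have been found. Nor could one of Hist1h1a that runs past its 48 bases, as one beginning 40 bases after the stop codon would. All 7 models have 1 exon and match the table in position and length. FPKM divides by that length, which is 2055 bases for H1f0, 1560 for Hist1h1c, 1930 for Hist1h1e, 741 for Hist1h1a, 743 for Hist1h1b, 1217 for H1fx and 7425 for Hist1h1d. If reads of Hist1h1d lie mainly on its coding part of 666 bases, its FPKM understates its level against the others.

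The libraries held 16649061 to 16906850 recovered reads when labelled aged and 17266815 to 17456715 when labelled young. Of 17 lung, endothelial and blood markers, 15 were under 1 FPKM in every library, which goes against the tissue label, and the groups are therefore called by their labels. The defining lung markers Sftpc and Scgb1a1 reached at most 0.112 and 0.855 FPKM in any library. The 17 markers summed to 24.3 to 25.5 FPKM in libraries labelled aged and 17.8 to 19.4 FPKM in those labelled young, nearly all of it from Cd68 and Hopx, without which the sum was 2.65 to 3.11 FPKM in libraries labelled aged and 1.31 to 1.86 FPKM in those labelled young. Cd68, a macrophage marker, was at 16.1 ± 0.601 FPKM in the libraries labelled aged and 6.98 ± 0.989 FPKM in those labelled young (limma adjusted p = 8.75e-05). Hopx, known from alveolar type 1 cells, was at 5.97 ± 0.443 FPKM in the libraries labelled aged and 10.2 ± 0.195 FPKM in those labelled young (limma adjusted p = 7.61e-05). Of 10 fibroblast markers, 7 were at 10 FPKM or more in all 6 libraries and 3 (Thy1, Dcn and Lum) under 1 FPKM in all. By limma 2 of the 7 rose (Fn1, 1.82-fold, and Pdgfrb, 1.09-fold), 4 fell (among them Col3a1, 3.24-fold, and Col1a2, 1.53-fold) and 1 did not pass the threshold. The part of these markers in the H1 values was not tested. The summed level of the 8 kidney markers was 24.2 to 26.2 FPKM in libraries labelled aged and 34.7 to 172.5 FPKM in those labelled young. Without Cyp4b1, which was at 23.5 ± 1.43 FPKM in the libraries labelled aged and 37.0 ± 3.14 FPKM in those labelled young, the other 7 summed to 1.07 to 1.76 FPKM in libraries labelled aged, and to 132 in young 1, 0.796 in young 2 and 26.3 FPKM in young 3. The kidney gene Kap was at 116 FPKM in young 1, 21.9 in young 3 and 0 in the other 4 libraries. By limma, 60.0% of 15197 tested genes differed between the groups at an adjusted p under 0.05 (27.7% higher and 32.3% lower in libraries labelled aged), and for 66.9% the groups did not overlap (31.3% higher and 35.6% lower).

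H1f0, the replication-independent H1 of resting and differentiated cells (chromosome 15, 79028450 to 79030504, plus strand, with positions of all genes as the table gives them, mm10), showed by far the widest gap of the 7 genes. It had 57.8, 57.4 and 53.0 FPKM in the libraries labelled aged, against 484, 533 and 567 FPKM in those labelled young. The lowest library labelled young was thus far above the highest labelled aged. Its mean was 56.1 ± 2.65 FPKM in the libraries labelled aged and 528 ± 41.7 FPKM in those labelled young (SD, n = 3 each, as in all means here), 9.41-fold lower. The log2 fold change on the log2(FPKM + 1) scale was -3.21 ± 0.08 (SE between libraries). Young 2, in which Kap was 0, had 533 FPKM, between the 2 libraries that held kidney transcripts. H1f0 rested on 1873 to 2042 reads per library labelled aged and 17117 to 20102 per library labelled young. By mean level it stood at place 899 of the tested genes in the libraries labelled aged and at place 47 in those labelled young. Its log2 fold change was the third lowest of all 15197 on this scale, which compresses the changes of low genes. None of the 50-base windows of its model occurs in a transcript of another gene. The annotated gene Gm49544 overlaps 163 bases of it on the other strand and had at most 5 reads in a library.

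H1fx, the other replication-independent subtype (chromosome 6, 87980421 to 87981637, minus strand), was barely detected. It had 0 reads in each library labelled aged, and 0, 2 and 0 reads in the libraries labelled young. A count of 0 in 1 library allows up to 3 reads, so both groups were at or under that limit and no fold is given. The annotated gene Gm5577 overlaps 755 bases of H1fx on the other strand and had at most 2 reads in a library. Gm47286 overlaps 24 bases of H1fx on the same strand, with 0 reads throughout. How reads in such overlaps were counted is not stated, so the level of H1fx may be understated. Other H1 genes were as scarce. The oocyte gene H1foo and the sperm-cell genes H1fnt, Hils1 and Hist1h1t were all under 1 FPKM in every library, with H1fnt at 0 in all 6.

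Hist1h1c, the most abundant H1 of the histone cluster (chromosome 13, 23738808 to 23740367, plus strand), was lower in the libraries labelled aged, but much less so than H1f0. Its values were 63.6, 67.4 and 59.5 FPKM in the libraries labelled aged, against 117, 122 and 133 FPKM in those labelled young, with no overlap. The means were 63.5 ± 3.91 FPKM and 124 ± 8.35 FPKM for the libraries labelled aged and labelled young, 1.95-fold lower, and the log2 fold change was -0.95 ± 0.07. It was read from 1596 to 1782 reads per library labelled aged and 3141 to 3587 per library labelled young. Of its 50-base windows, 8.54% also occur in transcripts of other genes, most often Hist1h1d.

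**Figure D2:**
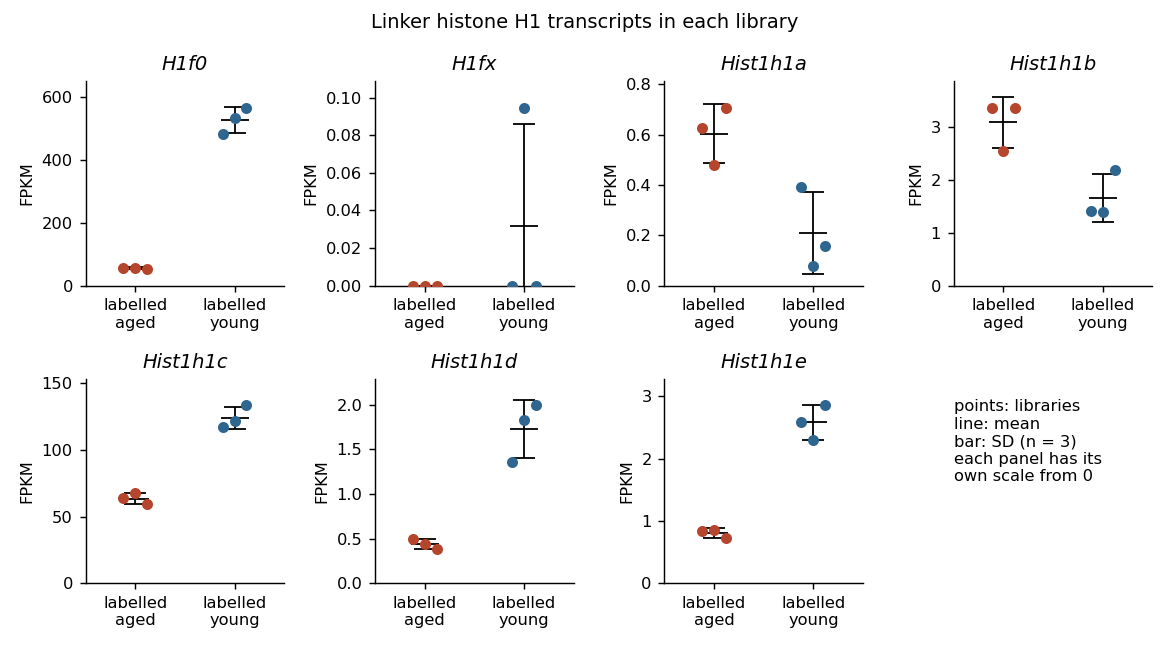
FPKM of each H1 gene in the 3 libraries labelled aged (left in each panel) and the 3 labelled young (right), with the mean as a line and the SD as a bar. H1f0 lies between 53.0 and 57.8 FPKM in libraries labelled aged and between 484 and 567 FPKM in those labelled young, and only Hist1h1a and Hist1h1b are higher in the libraries labelled aged.

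Hist1h1d and Hist1h1e, a pair of cluster subtypes close in sequence, were lower too, at low levels. Hist1h1d (chromosome 13, 23553262 to 23560686, plus strand) had 0.501, 0.437 and 0.384 FPKM in the libraries labelled aged, against 1.36, 1.83 and 1.99 FPKM in those labelled young. These come from 64, 55 and 49 reads in the libraries labelled aged and 174, 236 and 255 reads in those labelled young. Its mean was 3.92-fold lower, while on the log2(FPKM + 1) scale, which compresses low genes, the log2 fold change was -0.91 ± 0.11. Hist1h1e (chromosome 13, 23620629 to 23622558, minus strand) had 0.844, 0.855 and 0.724 FPKM in the libraries labelled aged, against 2.59, 2.30 and 2.85 FPKM in those labelled young. It was 3.19-fold lower, with a log2 fold change of -0.98 ± 0.07. The groups did not overlap for either gene. Reads of Hist1h1e are uncertain, because 32.0% of its 50-base windows occur in transcripts of other genes. The overlapping core histone gene Hist1h2be shares 496 bases with it on the same strand, and was higher in the libraries labelled aged, at 2.44 ± 0.366 FPKM against 1.32 ± 0.253 FPKM in those labelled young. Coding sequences of Hist1h1c, Hist1h1d and Hist1h1e were 80.8% to 83.9% identical to one another, and that of H1f0 was 49.6% to 57.2% identical to the other 6.

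Hist1h1b and Hist1h1a were higher in the libraries labelled aged. Hist1h1b (chromosome 13, 21779883 to 21780625, minus strand) had 3.37, 2.54 and 3.37 FPKM in the libraries labelled aged, against 1.41, 1.40 and 2.18 FPKM in those labelled young, which is 43, 32 and 43 reads against 18, 18 and 28. The groups did not overlap, though young 3 came near aged 2. Its mean was 1.86-fold higher, at 3.09 ± 0.478 FPKM in the libraries labelled aged and 1.66 ± 0.452 FPKM in those labelled young, and the log2 fold change was 0.63 ± 0.17. Hist1h1a (chromosome 13, 23763666 to 23764406, plus strand) had 8, 6 and 9 reads in the libraries labelled aged, against 5, 1 and 2 reads in those labelled young. That is 0.628, 0.477 and 0.707 FPKM in the libraries labelled aged and 0.392, 0.0777 and 0.156 FPKM in those labelled young, again without overlap. The ratio of its summed reads per library size was 2.97 (exact Clopper-Pearson 95% interval 1.28 to 7.68, which covers counting error only). Neither gene shares a 50-base window with a transcript of another gene.

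Counted together, the groups did not overlap for 6 of the 7 genes, of which 4 were lower and 2 higher in the libraries labelled aged, beside 66.9% of all tested genes. Nothing is read from this count, since the genes were picked on the same difference. Only 5 of the 7 passed the filter on low values, 0.5 FPKM in at least 3 libraries. H1fx and Hist1h1a did not, and Hist1h1d passed through the 3 libraries labelled young and 1 labelled aged.

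**Figure D3:**
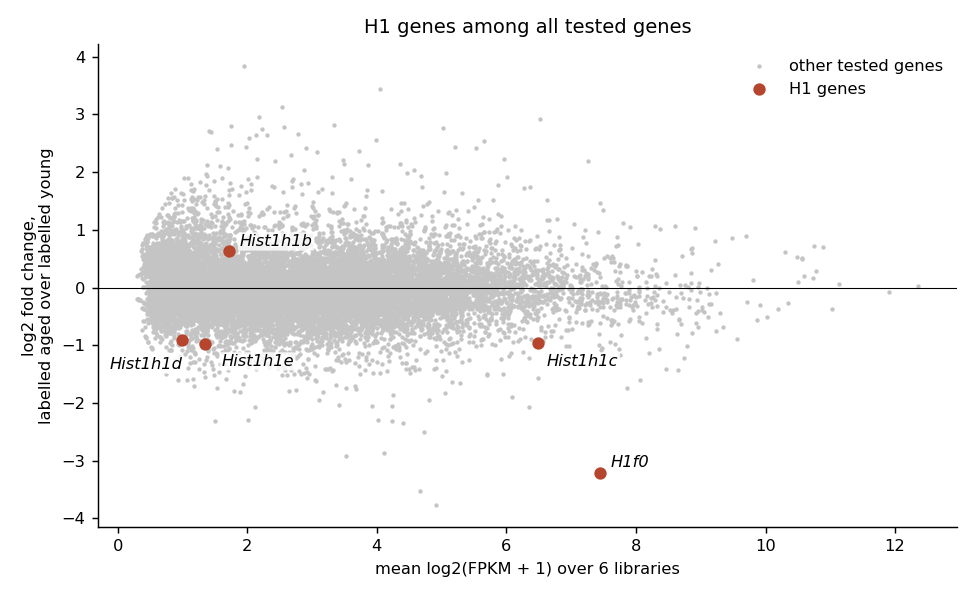
Log2 fold change of the libraries labelled aged over those labelled young (vertical axis) against mean log2(FPKM + 1) over the 6 libraries (horizontal axis) for 15197 tested genes in grey and the 5 tested H1 genes in red. H1f0 lies at -3.21, place 3 from the lowest of 1204 genes with at least 50 FPKM in either group, while Hist1h1c, Hist1h1d and Hist1h1e lie between -0.98 and -0.91 and Hist1h1b at 0.63.

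The makeup of H1 transcripts differed between the groups. H1f0 was the most abundant in the libraries labelled young, while in those labelled aged its order with Hist1h1c depended on the scale. Per length it lay below Hist1h1c there, but by reads not divided by length it lay above, with 1873 to 2042 reads against 1596 to 1782, and made up 52.0% of H1 reads. The summed FPKM of the 7 genes was 127, 129 and 118 in the libraries labelled aged, against 606, 660 and 707 in those labelled young, a ratio of 0.189, which was also 0.189 without both young libraries that held kidney transcripts. H1f0 made up 45.6%, 44.5% and 45.0% of that sum in the libraries labelled aged, against 79.8%, 80.7% and 80.1% in those labelled young. Hist1h1c made up 51.0% ± 1.06 in the libraries labelled aged and 18.9% ± 0.418 in those labelled young. In FPKM, H1f0 was at 0.884 ± 0.0287 times the level of Hist1h1c in the libraries labelled aged and 4.26 ± 0.119 times in those labelled young. The other 5 genes summed to 4.94 ± 0.555 FPKM and 6.21 ± 0.843 FPKM in the libraries labelled aged and labelled young. Hist1h1b and Hist1h1a, the pair that was higher in the libraries labelled aged, made up 2.49% and 0.489% of the sum there. In a bulk sample, fewer cells that hold a transcript and less of it per cell cannot be told apart, and levels of mRNA do not give levels of H1 protein.

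**Figure D4:**
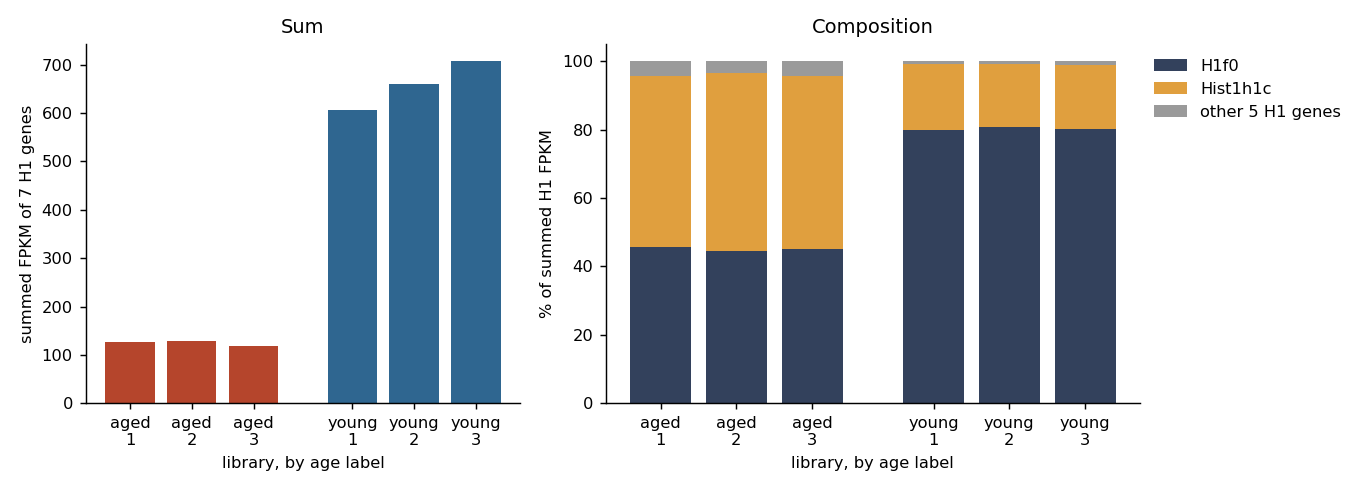
Left, summed FPKM of the 7 H1 genes in each library, and right, the share of that sum taken by H1f0, Hist1h1c and the other 5 genes, with the 3 libraries labelled aged left of the 3 labelled young. The sum lies between 118 and 129 FPKM in libraries labelled aged and between 606 and 707 FPKM in those labelled young, and H1f0 takes 44.5% to 45.6% against 79.8% to 80.7%.

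Core histone genes of the cluster were described over all 64. Of these, 32 were higher without overlap in the libraries labelled aged, 2 were lower and 30 overlapped. Over all tested genes 31.3% were higher and 35.6% lower without overlap, but only 26 of the 64 passed the filter. At 0 in every library were 14 of the 64, and these count as overlapping. Of the 26 that passed the filter, 22 rose by limma, 1 fell and 3 did not pass the threshold. That is 84.6% higher, beside 27.7% over all tested genes. However, 7 of the 22 were under 0.5 FPKM in every library labelled young and passed only through the libraries labelled aged, so they had to be higher. With a filter at a mean of at least 1 FPKM, 16 were tested, 15 rose and 1 fell. The highest means were those of Hist1h2bc, at 33.5 ± 1.88 FPKM in the libraries labelled aged and 11.5 ± 0.688 FPKM in those labelled young, Hist1h4k and Hist1h3g. Hist1h3g, a histone H3 gene, was at 16.3 ± 1.34 FPKM in the libraries labelled aged and 1.75 ± 0.184 FPKM in those labelled young (limma adjusted p = 2.67e-06). Hist2h3c2, also of histone H3, was at 9.95 ± 0.306 FPKM in the libraries labelled aged and 0.756 ± 0.179 FPKM in those labelled young (limma adjusted p = 2.78e-06). Hist2h2be, of histone H2B, was the gene that fell, at 3.46 ± 0.0897 FPKM in the libraries labelled aged and 4.95 ± 0.747 FPKM in those labelled young.

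Of the 10 histone genes that flank the 5 Hist1h1 genes, 6 were higher in the libraries labelled aged without overlap, 0 were lower and 4 overlapped. Over all tested genes 31.3% were higher and 35.6% lower without overlap, but not all of the 10 passed the filter. Several rest on few reads, such as Hist1h2bn with 8, 3 and 5 reads in the libraries labelled aged and 0, 1 and 3 in those labelled young, and no more is read from this count. The next gene after Hist1h1c, the histone H3 gene Hist1h3c at 4605 bases, had 39, 31 and 24 reads in the libraries labelled aged and 5, 2 and 4 in those labelled young. Relative to the clustered core genes, the summed FPKM of the H1 genes was 0.884 to 0.970 times as high in libraries labelled aged. The young label gave 12.8 to 15.1 times. This H1 sum includes H1f0, which lies outside the cluster. With the 5 Hist1h1 genes alone, the ratio to the core genes was 0.481, 0.538 and 0.487 in aged 1, aged 2 and aged 3. It was 2.60, 2.81 and 3.00 in young 1, young 2 and young 3.

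Genes of S phase, when the Hist1h1 genes are normally expressed, mostly rose. Of 25 tested, 22 rose, 1 fell and 2 did not pass the threshold by limma, with a median log2 fold change of 0.42 beside -0.03 over all tested genes. That is 88.0% higher, beside 27.7% over all tested genes. Mcm7, of the replicative helicase, was at 59.9 ± 1.21 FPKM in the libraries labelled aged and 36.7 ± 0.213 FPKM in those labelled young (limma adjusted p = 7.08e-06). Ccna2, cyclin A2, was the member that fell, at 38.6 ± 0.844 FPKM in the libraries labelled aged and 46.1 ± 0.892 FPKM in those labelled young. Among the H1 genes, Hist1h1a and Hist1h1b had the direction of most of this list, and Hist1h1c, Hist1h1d and Hist1h1e did not.

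Among 21 genes that transcribe histone genes and process their mRNAs, 20 were tested, and 5 rose, 6 fell and 9 did not pass the threshold by limma, with a median log2 fold change of 0.01. The shares, 25.0% higher and 30.0% lower, were close to the 27.7% and 32.3% over all tested genes. Slbp, which binds the stem-loop shown above, was at 21.3 ± 0.317 FPKM in the libraries labelled aged and 21.2 ± 0.980 FPKM in those labelled young (log2 fold change 0.002 ± 0.041 SE, limma adjusted p = 0.978). Npat, the coactivator of histone genes in S phase, was at 7.13 ± 0.279 FPKM in the libraries labelled aged and 7.06 ± 0.716 FPKM in those labelled young (limma adjusted p = 0.853). Lsm11, a subunit of the U7 particle that cuts after the stem-loop, fell to 3.22 ± 0.0341 FPKM in the libraries labelled aged, against 4.73 ± 0.200 FPKM in those labelled young. Tut4, which adds uridines to RNA ends, fell as well. Dcp2, a decapping enzyme, rose to 5.60 ± 0.0878 FPKM in the libraries labelled aged, against 3.74 ± 0.200 FPKM in those labelled young, and Cpsf2, a subunit of the cleavage complex, also rose.

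Of 10 tested genes in the list of replication-independent core histone variants, 2 rose, 5 fell and 3 did not pass the limma threshold, with a median log2 fold change of -0.21. Hist3h2a, 1 of the 3 that did not pass, was also counted among the clustered core genes above. H3f3b, a gene of histone variant H3.3, fell to 120 ± 3.07 FPKM in the libraries labelled aged, against 255 ± 10.4 FPKM in those labelled young, and H2afy (macroH2A) fell 1.80-fold. H2afj, a variant of H2A, rose 2.59-fold to 47.6 ± 3.16 FPKM, and Cenpa, the centromeric H3, rose 1.27-fold. H2afx, the variant phosphorylated at DNA breaks, was at 79.7 ± 2.82 FPKM in the libraries labelled aged and 77.0 ± 6.13 FPKM in those labelled young and did not pass the threshold.

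Of 8 chaperone and nuclear import genes of H1, 3 fell (37.5%), 2 rose (25.0%) and 3 did not pass the threshold by limma. Over all tested genes 32.3% were lower and 27.7% higher, and the median log2 fold change of the list was -0.01. Ptma, prothymosin alpha, an acidic protein that binds H1, fell to 765 ± 38.7 FPKM in the libraries labelled aged, against 1137 ± 61.0 FPKM in those labelled young. The import receptor gene Ipo7 fell 1.26-fold. Nasp, a histone chaperone that also binds H1, was at 13.8 ± 0.539 FPKM in the libraries labelled aged and 13.2 ± 0.260 FPKM in those labelled young and did not pass the threshold. Kpnb1 and Nap1l4 were the 2 that rose, each by less than 1.2-fold, and without aged 2, aged 3 or young 2 the count of genes that rose was 0, and 1 without young 1 or young 3.

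HMG proteins, which share binding sites with H1 on the nucleosome or linker DNA, included Hmga2, with the largest log2 fold change on the log2(FPKM + 1) scale among the list genes tested (2.76). It rose to 83.0 ± 2.65 FPKM in the libraries labelled aged, against 11.4 ± 0.324 FPKM in those labelled young, and Hmga1 rose 2.18-fold. Of the 8 tested, these 2 rose (25.0%, beside 27.7% over all tested genes) and 4 did not pass the threshold. The 2 that fell (25.0%, beside 32.3% over all tested genes) were Hmgb2 and Hmgn5, 1.21-fold and 1.12-fold. Only 1 fell without aged 1, aged 3 or young 3, and 1 with median centring. The median of the list was -0.12. Hp1bp3, an H1-like protein of heterochromatin, was at 21.0 ± 0.206 FPKM in the libraries labelled aged and 19.8 ± 0.399 FPKM in those labelled young (limma adjusted p = 0.0670), and was called higher with median centring and with voom on recovered reads.

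Enzymes that modify H1 had 2 of 11 tested genes that rose (18.2%), 6 that fell (54.5%) and 3 others by limma, and 4 that rose with median centring. Cdk1, the mitotic kinase that phosphorylates H1, rose 1.30-fold to 35.0 ± 0.845 FPKM, and Prkdc, the DNA-dependent kinase, rose 1.30-fold. Ehmt1, a lysine methyltransferase, fell 1.40-fold, and Ppp2ca, the catalytic subunit of phosphatase 2A, fell 1.31-fold. Heterochromatin proteins had 3 of 11 tested genes that rose (27.3%), 6 that fell (54.5%) and 2 others. Only 1 of them rose without aged 1, aged 2 or young 3. The shares of both lists stand beside 27.7% higher and 32.3% lower over all tested genes. Cbx1, a heterochromatin protein 1 gene, fell 1.31-fold and Smchd1 1.39-fold, while the H3K9 methyltransferase genes Suv39h1 and Suv39h2 rose 1.17-fold and 1.42-fold. The log2 fold changes in both lists ran from -0.60 to 0.38, all smaller in size than the -0.95 of Hist1h1c, with medians of -0.17 for the enzymes and -0.18 for heterochromatin.

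The genes with profiles most like those of the H1 genes were ranked by the root mean square difference of their mean-centred log2(FPKM + 1) values over the 6 libraries. For H1f0 they were Ifi27l2a, an interferon-inducible gene (difference 0.06), Ly6a, the surface antigen Sca-1 (0.17), and Aldoc, aldolase C of glycolysis (0.21). Ifi27l2a was at 55.6 ± 1.43 FPKM in the libraries labelled aged and 515 ± 56.1 FPKM in those labelled young. In Ifi27l2a and H1f0 young 1 was the lowest and young 3 the highest of the libraries labelled young. The ranking favours genes with such a shared order, so nothing further is read from it. For Hist1h1c they were Dnpep, an aspartyl aminopeptidase (0.023), Slc37a4, a glucose-6-phosphate transporter (0.040), and Stbd1, a glycogen-binding protein (0.043). For Hist1h1b the nearest was Gm49494 (0.069), for Hist1h1d Mcrip1 (0.031) and for Hist1h1e again Stbd1 (0.053). The other H1 genes and pseudogenes were left out of this ranking.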

How the data were processed

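The authors deposited 1 table of FPKM values per gene. Per the labels' protocols, RNA was extracted with TRIzol, sequenced in pairs on a NovaSeq instrument and aligned with HISAT2 2.0.5; the submitters' processing notes name the build mm10. In the table, 27 symbols turned into dates were restored from gene identifiers. The read counter, its annotation and its strand setting are not stated. In every library, 100% of the values above 0, times gene length, were whole multiples of 1 step (tolerance 0.01), which gave whole reads, and 3 reads on 1 kilobase correspond to 0.173 to 0.177 FPKM. Intervals cover counting error only. Chi-square per degree of freedom was 2.25 to 4.93 within and 76.8 to 81.6 between groups, so no libraries were merged.

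Genes with at least 0.5 FPKM in at least 3 libraries were compared on log2(FPKM + 1) with limma 3.58.1 in R 4.3.3 (mean-variance trend, 2-sided, Benjamini-Hochberg over 15197 genes, threshold 0.05), after a test on simulated reads. Other steps used Python 3.11.15 with numpy 2.4.6, pandas 2.3.3, scipy 1.17.1, Biopython 1.88 and matplotlib 3.10.9. Promoters are from RefSeq (GRCm38.p6), where all 7 genes matched, and gene models and stem-loops from GENCODE M21.

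The members and lists were chosen with earlier results of these data known. Named genes are the H1 genes, up to 2 called genes per direction and list with the smallest adjusted p and at least 1 FPKM, 5 genes tied to H1 or histone mRNA, core histone genes of the highest mean, and nearest profiles. Others (Hist1h2be, Hist1h2bn, Hist1h3c, Hist3h2a, Gm49544, Gm5577, Gm47286, the markers under 1 FPKM, Kap and the germ-cell genes) were chosen after their values were seen. Alternatives covered pseudocounts, filters, scaling, voom on recovered reads, the replicate block and leaving out libraries. 1 S phase gene that the rule names is not reported here.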

Additional observations from a re-analysis of the deposited data

How the results depend on the processing

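The summed H1 ratio and the direction of the 5 tested H1 genes held under every alternative run. Leaving out each library in turn gave log2 fold changes of -3.27 to -3.16 for H1f0 and a summed ratio of 0.182 to 0.197, and leaving out both young libraries with kidney transcripts, a choice made after seeing the data, gave a summed ratio of 0.189. Sizes of low genes followed the scale, because a pseudocount of 1 compresses them: with pseudocounts of 0.1 and 0.5, rescaling to TPM and log2 of recovered reads scaled to library size, Hist1h1d was at -1.75, -1.23, -1.42 and -1.92 and Hist1h1e at -1.56, -1.23, -1.35 and -1.62, and on recovered reads Hist1h1b was at 0.93. H1fx, read from 2 reads, turned to 0.022 with median centring. The share of H1f0 differed by -31.6 percentage points with reads not divided by length, against -35.2. The number of genes called was 9115, and 8964 to 9512 under the alternatives of scaling, pseudocount, trend and voom, with 4988 higher and 4026 lower under median centring, 9330 called with no filter and 8392 at a mean of at least 1 FPKM. Without each library it was 8155 to 8708, and 6234 without both young libraries with kidney transcripts, where fewer list genes were called: 3 and not 6 histone processing genes fell, 1 and not 2 HMG genes fell, 1 and not 3 heterochromatin genes rose, and 0 and not 2 chaperone genes rose. With no filter, 1 chaperone gene and 1 heterochromatin gene rose and 1 HMG gene fell. With the replicate block 8441 were called, and 1 chaperone gene rose. Same-numbered libraries correlated at -0.0079 to 0.019 in their deviations, so the numbers pair no libraries. Depth limits Hist1h1a and H1fx, which had at most 9 reads in a library.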
